A study of Mus musculus with 2 samples.

Results

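Claudins, connexins and the other membrane, scaffold and plaque proteins of cell junctions were described in 2 mRNA libraries of mouse embryonic stem cells. The members were the rows of the count table whose symbol names a claudin, a connexin, a zonula occludens scaffold (Tjp), occludin or another MARVEL-domain protein, a junctional adhesion molecule, or a desmosome protein. There were 69 such rows of 24061: 25 claudins, 19 connexins, 10 tight junction proteins and 15 desmosome proteins. Claudins were taken by symbol, and the rows named Cldn25 and Cldn26 carry the Entrez IDs of Cldnd1 and Tmem114. Both rows are kept in the claudin counts and shares. Of these, 35 had at least 20 counts summed over both libraries and are called measured, as were 14213 genes of the whole table. Cldn15, with 21 counts, lay just inside that minimum and Cldn19, with 16, just outside it.

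The stem cells were of the C57BL/6 strain and were grown with leukaemia inhibitory factor on mouse embryonic fibroblast feeders. One library was labelled control (passages 17 to 23) and the other Pc4-OE, for overexpression of Pc4, the transcriptional coactivator encoded by Sub1 (passages 24 to 37). The design text describes picked colonies that carried a Venus lentivirus, giving 3 lines, and does not say which of them gave the library or whether the control cells received a virus. Whether feeders were removed before lysis is not stated in the sources used here. Passage and label cannot be told apart. With 1 library per group there is no spread between cultures, so no p-value is given and each difference is one between 2 libraries.

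Sub1 went against its label. It had 5522 counts (530.3 CPM, counts per 1000000 after trimmed-mean scaling) in the control-labelled library against 2432 (235.0 CPM) in the Pc4-OE-labelled library, a level 2.26-fold lower (interval 2.15 to 2.37). The libraries are therefore named by their labels throughout. They held 10571463 and 10194783 counts. Intervals are 95% exact binomial intervals of the 2 counts and cover counting error only: for equal libraries, a ratio of 1 has an interval of 0.374 to 2.68 at 20 counts summed and of 0.882 to 1.13 at 1000. The 2-fold rule asks for a ratio of 2 or more, in either direction, with an interval that excludes 1.

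Tight junctions seal the space between neighbouring epithelial cells. Claudins and MARVEL proteins form their strands, junctional adhesion molecules lie beside them, and the Tjp scaffolds tie them to actin. Desmosomes anchor keratin filaments through cadherins (Dsg, Dsc) bound to plaque proteins (Jup, Pkp, Dsp), and connexins assemble the gap junction channels that pass ions and small molecules between cells. Stem cell colonies are epithelial in form, while fibroblasts lack most claudins and are rich in the connexin Gja1.

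The upstream sequences of 5 of the 7 members that were higher by the rule are shown first. They came from 5 chromosomes and from 3 of the 4 protein families. The promoter of Gja4, also higher by the rule, is not shown and holds no match to the motifs marked here. No promoter was found for Dsc2, or for Gjc1 and Dsg2, the 2 members lower by the rule. The motif counts below therefore hold no lower member. Each run is the 250 bases before the RefSeq start (GRCm38.p6), 5′ to 3′ on the strand of the gene. Capitals mark matches to CACCTG (an E-box bound by SNAI and ZEB repressors), TGANTCA (AP-1), GGAATG (TEAD) or GCCNNNGGC (AP-2), searched on both strands. The windows are chr5:134946935-134947184 (minus strand) for Cldn4, chr17:23679115-23679364 (plus) for Cldn6, chr11:69964529-69964778 (plus) for Cldn7, chr10:81291582-81291831 (minus) for Tjp3 and chr13:38151044-38151293 (plus) for Dsp.
Cldn4: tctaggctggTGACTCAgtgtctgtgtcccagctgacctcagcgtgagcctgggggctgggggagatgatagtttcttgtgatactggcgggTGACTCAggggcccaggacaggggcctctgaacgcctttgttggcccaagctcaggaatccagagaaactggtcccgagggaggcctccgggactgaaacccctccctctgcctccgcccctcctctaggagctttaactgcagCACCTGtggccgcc
Cldn6: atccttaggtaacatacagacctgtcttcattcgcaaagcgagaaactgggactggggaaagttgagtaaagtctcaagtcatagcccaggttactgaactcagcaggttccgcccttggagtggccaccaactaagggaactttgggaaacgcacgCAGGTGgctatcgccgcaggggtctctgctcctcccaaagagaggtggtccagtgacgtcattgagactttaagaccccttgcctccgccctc
Cldn7: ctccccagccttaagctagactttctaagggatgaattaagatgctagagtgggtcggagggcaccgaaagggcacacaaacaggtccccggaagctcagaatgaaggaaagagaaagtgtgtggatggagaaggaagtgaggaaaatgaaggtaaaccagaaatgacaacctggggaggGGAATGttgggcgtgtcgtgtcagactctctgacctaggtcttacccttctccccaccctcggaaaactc
Tjp3: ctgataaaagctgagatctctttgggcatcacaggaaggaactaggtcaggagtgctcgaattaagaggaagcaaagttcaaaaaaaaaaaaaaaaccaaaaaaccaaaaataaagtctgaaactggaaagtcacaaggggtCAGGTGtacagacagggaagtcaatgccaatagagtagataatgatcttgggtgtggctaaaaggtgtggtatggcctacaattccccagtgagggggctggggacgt
Dsp: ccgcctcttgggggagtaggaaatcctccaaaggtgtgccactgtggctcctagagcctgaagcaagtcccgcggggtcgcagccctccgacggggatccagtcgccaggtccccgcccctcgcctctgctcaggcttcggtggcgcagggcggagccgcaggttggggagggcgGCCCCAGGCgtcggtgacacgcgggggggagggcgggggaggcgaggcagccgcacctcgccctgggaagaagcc

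The capitals in Cldn4 are a pair of AP-1 matches and an E-box that begins 14 bases before the start. Cldn6 and Tjp3 each hold an E-box match on the reverse strand, Cldn7 a TEAD match and Dsp an AP-2 match, which overlaps a GGGCGG by 1 base. For 3 of the 23 members with a promoter, the listed start lies inside the annotated gene span: by 17 bases for Cldn6, 49 bases for Jup and 157 kb for Tjp1. Promoters were found for 23 of the 35 measured members. An E-box match occurred in 5 of these 23, against 17.1% of 27025 promoters of the same length. AP-1 matched in 4 (6.85% of all promoters), TEAD in 4 (12.6%), AP-2 in 4 (13.5%) and TATAAA in 2 (13.0%). The Grainyhead motif AACCNGTT matched in 1, that of Cldn5 (1.74% of all promoters). The KLF and SP motif GGGCGG, not capitalised, matched in 14 of 23, or 60.9%, against 33.0% of all promoters, and the median GC content was 60% against 52%. All 3 promoters that start inside their span hold it, and without them it matched in 11 of 20. A match describes letters in this window and is not a site.

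Of the 35 measured members, 7 met the rule as higher in the Pc4-OE-labelled library, as did 11.8% of all measured genes. The 7 were Dsp, Cldn7, Cldn4, Dsc2, Tjp3, Cldn6 and Gja4, between 2.18-fold and 5.31-fold higher. Lower by the same rule were 2, Gjc1 and Dsg2, against 4.02% of all measured genes. The other 26 met neither rule, and for 15 of the 35 the interval held a ratio of 1. The median log2 ratio of the 35 was 0.21, against -0.01 for all measured genes, and the members ran from -1.11 to 2.41. Summed over the measured members, the level was 1726 CPM in the control-labelled library against 1869 CPM in the other. By family, the sums were 171 and 328 CPM for claudins, 331 and 460 for connexins, 838 and 714 for tight junction proteins and 385 and 366 for desmosome proteins.

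**Figure D1:**
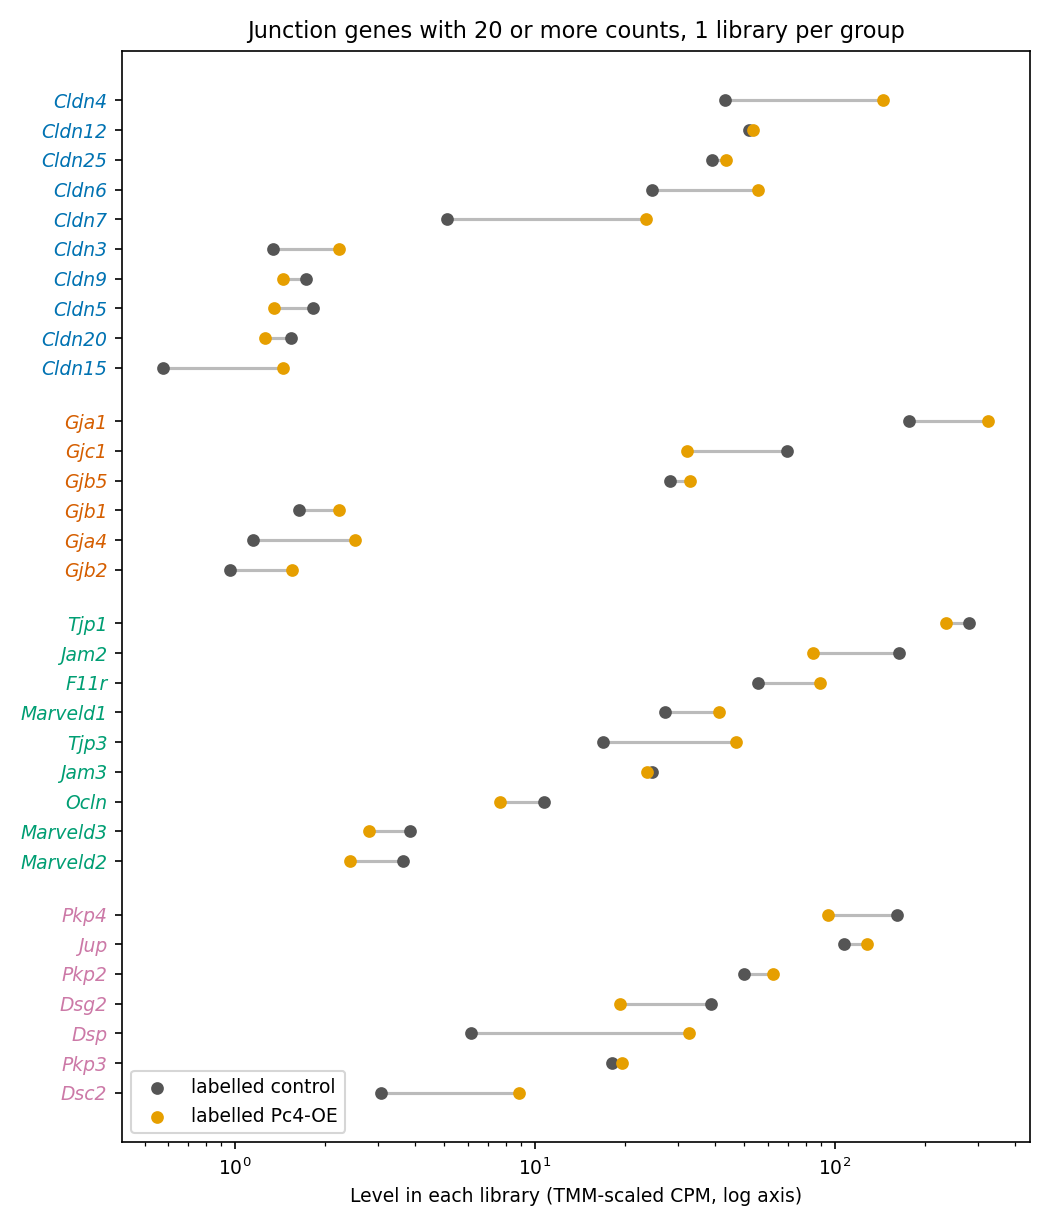
Level of 32 of the 35 measured junction genes in the 2 libraries, in scaled CPM on a log axis, with a grey line joining the control-labelled library (dark) to the Pc4-OE-labelled library (orange); label colours give the family and each point is 1 library. Cldn4, Cldn7, Tjp3 and Dsp have the widest gaps toward the Pc4-OE label among genes above 10 CPM there, while Tjp1, Jam2, Pkp4 and Gjc1 lie lower in that library.

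If a coefficient of variation of 0.4 between cultures is assumed, which these data cannot check, 3 of the 7 still met the rule (Dsp, Cldn7 and Cldn4), with 4.20% of all measured genes higher. Neither of the 2 lower members did, with 0.675% of all genes lower.

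The claudins held 3 of the 7 higher genes and no lower one among 10 measured. The higher share was 30%, and all measured genes gave 11.8% higher and 4.02% lower. Cldn4, a barrier-forming claudin and a receptor of Clostridium perfringens enterotoxin, had 450 counts (43.2 CPM) in the control-labelled library against 1498 (145 CPM) in the Pc4-OE-labelled library. That is 3.35-fold higher (interval 3.01 to 3.73). Cldn4 is a gene of 1 exon on chromosome 5, 134945123 to 134946934 (GRCm38). Cldn7, which binds the adhesion molecule EPCAM, had 53 and 244 counts (5.09 and 23.6 CPM), 4.63-fold higher (3.43 to 6.36). Cldn6, a claudin of early embryonic epithelia and pluripotent cells, had 256 and 576 counts (24.6 and 55.7 CPM), 2.26-fold higher (1.95 to 2.63). These 3 were picked because they met the rule as higher, so their shared direction follows from that choice.

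Well-counted claudins did not all differ. Cldn12, a claudin linked to paracellular calcium transport, stood at 51.8 and 53.2 CPM on 539 and 551 counts, with a log2 ratio of 0.04 (-0.13 to 0.21). The row named Cldn25 carries the Entrez ID of Cldnd1, a claudin-domain protein, and had 39.1 and 43.4 CPM (log2 ratio 0.15, -0.05 to 0.35). Both intervals held a ratio of 1. The remaining 5 claudins had at most 23 counts in either library, and the interval of each ratio held 1. They were Cldn3 (14 and 23 counts), Cldn5, the claudin of endothelium (19 and 14), Cldn9 (18 and 15), Cldn15 (6 and 15) and Cldn20 (16 and 13).

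The make-up of the claudin family therefore differed between the libraries. Per kilobase of exon, which allows genes to be compared, Cldn4 gave 27.0% of the claudin level in the control-labelled library and 44.5% in the Pc4-OE-labelled library. Cldn7 went from 3.91% to 8.91%, Cldn6 from 17.2% to 19.2%, Cldn12 from 14.9% to 7.55% and the Cldnd1 row from 28.8% to 15.7%. By reads alone Cldn4 held 24.9% (Clopper-Pearson interval 22.9 to 27.0) of 1806 claudin counts and 43.7% (42.1 to 45.4) of 3426. Among all members, Cldn4 had the ninth highest level per kilobase in the control-labelled library (23.8 CPM per kilobase) and the second highest in the other (79.7).

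**Figure D2:**
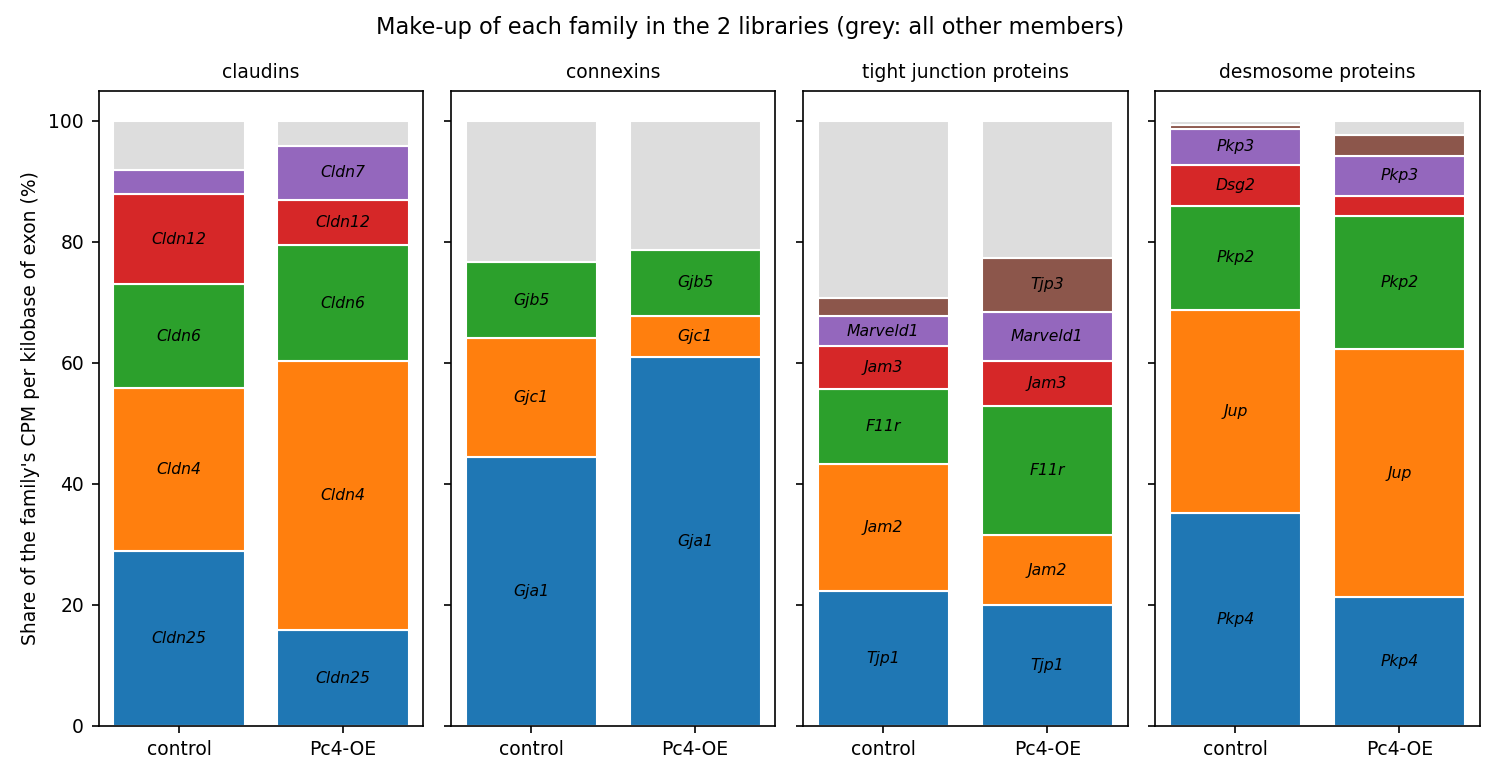
Share of each family's summed level, in scaled CPM per kilobase of exon, that each member took in the 2 libraries; every bar adds to 100% and grey holds all other members (unlabelled brown among desmosome proteins is Dsp). Cldn4 widens from 27.0% to 44.5% of the claudins and Gja1 from 44.4% to 60.9% of the connexins, while Gjc1, Jam2 and Pkp4 narrow.

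Among connexins, 1 was higher and 1 lower of 8 measured (12.5% each, against 11.8% and 4.02% of all measured genes). Gja1, the most widespread connexin and abundant in fibroblasts and stem cells, had 1848 counts (177 CPM) in the control-labelled library against 3374 (326 CPM) in the Pc4-OE-labelled library. It was 1.84-fold higher (1.74 to 1.95), below the 2-fold rule, and had the highest level per kilobase of all members in both libraries (57.8 and 106 CPM per kilobase). That rank and the share of Gja1 per kilobase rest on an exon length of 3.07 kb, from a RefSeq mRNA. All annotated exons of Gja1 cover 10.3 kb. Gjc1, a connexin of the early heart and of smooth muscle, went the other way. It had 725 and 333 counts (69.6 and 32.2 CPM), 2.16-fold lower (1.90 to 2.47), and lies on chromosome 11, 102799477 to 102819686. Relative to Gjc1, Gja1 was 3.97-fold higher in the Pc4-OE-labelled library than in the other (3.44 to 4.59). This ratio of 2 ratios does not depend on how the libraries are scaled. Fibroblast markers, in sum, stood at 7956 CPM in the first library and 20189 CPM in the second, and their part in the level of Gja1 was not tested.

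Gjb5, a connexin of skin and placenta, had 295 and 340 counts (28.3 and 32.9 CPM), a log2 ratio of 0.21 (-0.02 to 0.44), and the interval held a ratio of 1. Gja4, a connexin of endothelium and oocytes on chromosome 4, met the 2-fold rule on 12 and 26 counts (2.18-fold, 1.06 to 4.74), and with 0.5 CPM added to each level it did not (1.82-fold). Gjb1, of liver and myelin, had 17 and 23 counts and Gjb2, of the cochlea and epidermis, 10 and 16. Neither differed beyond its counting interval.

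**Figure D3:**
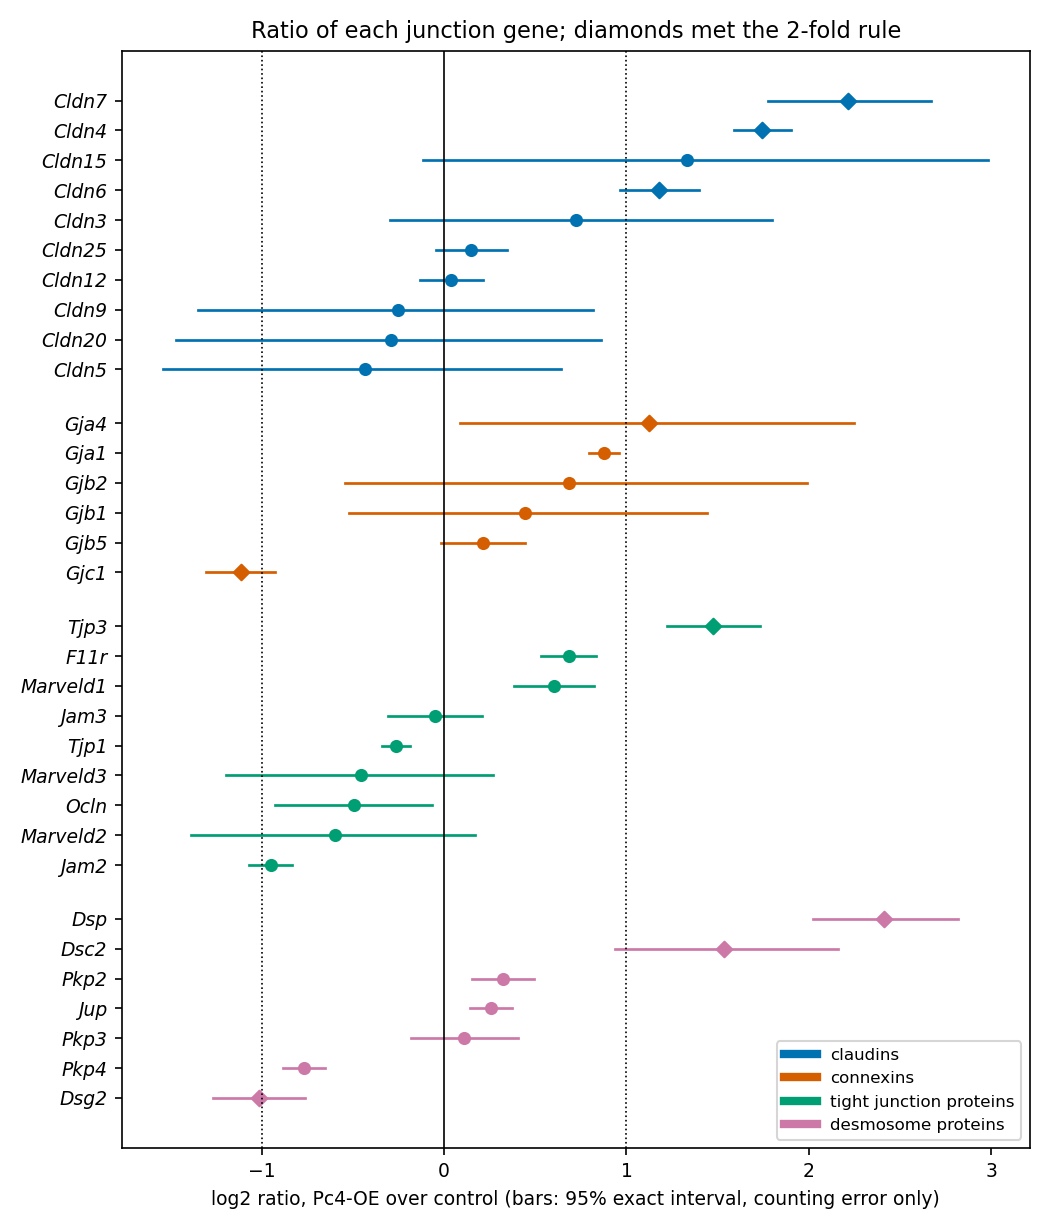
Log2 ratio of the Pc4-OE-labelled library over the control-labelled library for 32 measured members, grouped by family, with 95% exact intervals of the counts; dotted lines mark a 2-fold difference and diamonds the genes that met the rule. In every family ratios fall on either side of 0: the claudins run from -0.43 to 2.21, the connexins from -1.11 to 1.12, the tight junction proteins from -0.95 to 1.47 and the desmosome proteins from -1.01 to 2.41. The claudins below 0 are Cldn5, Cldn9 and Cldn20, and the interval of each holds 0.

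All 10 tight junction scaffold, MARVEL and adhesion genes were measured, and their median log2 ratio was -0.36. By the rule 1 was higher (10%) and none lower, against 11.8% and 4.02% of all measured genes. Tjp3, the scaffold most restricted to epithelia, had 176 counts (16.9 CPM) in the control-labelled library against 486 (47.0 CPM) in the Pc4-OE-labelled library, 2.78-fold higher (2.33 to 3.32). Tjp1, a broadly expressed and more abundant scaffold, was lower there: it had 2927 and 2426 counts (281 and 234 CPM), a log2 ratio of -0.26 (-0.34 to -0.18). Relative to Tjp1, Tjp3 was 3.33-fold higher (2.77 to 4.01). Even so, Tjp1 remained above Tjp3 per kilobase in the Pc4-OE-labelled library, at 33.0 against 14.9 CPM per kilobase.

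The junctional adhesion molecules also went apart. F11r, the family member of epithelia and platelets, had 578 and 922 counts (55.5 and 89.1 CPM), 1.60-fold higher in the Pc4-OE-labelled library (1.44 to 1.78). Jam2, known from endothelium, had 1701 and 875 counts (163 and 84.5 CPM), 1.93-fold lower (1.78 to 2.10) and short of the 2-fold rule. Jam3, a binding partner of Jam2, had 256 and 246 counts (log2 ratio -0.05, -0.31 to 0.21). The ratio of F11r exceeded that of Jam2 3.10-fold (2.71 to 3.55), and the order of the 2 genes per kilobase was reversed: 22.0 for F11r and 37.4 for Jam2 in the control-labelled library, 35.4 and 19.3 in the other.

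Of the MARVEL proteins, the 3 that reside in tight junctions all had ratios below 1. Ocln (occludin) had 112 and 79 counts, 1.41-fold lower (1.05 to 1.90). Marveld2, which seals the corners where cells meet, had 38 and 25 counts (log2 ratio -0.60, -1.38 to 0.17), and Marveld3 had 40 and 29 (-0.46, -1.20 to 0.27). Only the interval of Ocln excluded 1. Marveld1 had 283 and 427 counts (27.2 and 41.3 CPM), a log2 ratio of 0.60 (0.38 to 0.82), and its ratio was 2.29 times that of Marveld2 (1.31 to 4.05). Occludin and the claudins Cldn4, Cldn6 and Cldn7, which share the tight junction strand, thus lay on opposite sides of a ratio of 1.

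Of 15 desmosome genes, 7 were measured, 2 of them higher by the rule and 1 lower. These shares, 28.6% and 14.3%, stand beside 11.8% and 4.02% of all measured genes. Dsp, desmoplakin, links the plaque to keratin filaments. It had 64 counts (6.15 CPM) in the control-labelled library against 338 (32.7 CPM) in the Pc4-OE-labelled library, 5.31-fold higher (4.06 to 7.05), the highest ratio of all 35 members. Dsp has 24 exons and lies on chromosome 13, 38151294 to 38198577. The other plaque proteins differed less. Jup (plakoglobin), shared with adherens junctions, had 1115 and 1324 counts, 1.19-fold higher (1.10 to 1.29), Pkp2 had 519 and 646, 1.25-fold higher (1.11 to 1.41), and Pkp3 had 189 and 203 (log2 ratio 0.11, -0.18 to 0.41). Pkp4, a plakophilin relative that also sits at adherens junctions, had 1685 and 985 counts (162 and 95.2 CPM), 1.70-fold lower (1.57 to 1.84).

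The desmosomal cadherins crossed over in direction. Dsg2, the desmoglein of simple epithelia, had 404 and 199 counts (38.8 and 19.2 CPM), 2.02-fold lower (log2 ratio -1.01, -1.27 to -0.76). With library totals its log2 ratio was -0.97 and it did not meet the rule. Its partner Dsc2 had 32 and 92 counts (3.07 and 8.89 CPM), 2.89-fold higher (1.92 to 4.47). The ratio of Dsc2 was 5.82 times that of Dsg2 (3.71 to 9.33), the widest gap of the 26 pairs compared, although per kilobase Dsg2 stayed above Dsc2 in both libraries (6.73 against 0.664 CPM per kilobase in the control-labelled library and 3.33 against 1.92 in the other). Both lie in the desmosomal cadherin cluster of chromosome 18, with 499 kb between them. The desmogleins and desmocollins of stratified epithelia were near absent, the highest being Dsc3 at 2 and 8 counts.

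Neighbouring members did not always differ alike. The pairs were chosen after their values were seen, and the interval of the ratio of ratios excluded 1 for 22 of 26. Cldn6 and Cldn9 lie end to end on chromosome 17 with 0.137 kb between them, and the ratio of Cldn6 was 2.70 times that of Cldn9 (1.26 to 5.85). Cldn4 and Cldn3, 39.3 kb apart, did not differ beyond counting error (2.03, 0.955 to 4.15), nor did Ocln and Marveld2, 43.2 kb apart on chromosome 13 (1.07, 0.578 to 2.01).

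**Figure D4:**
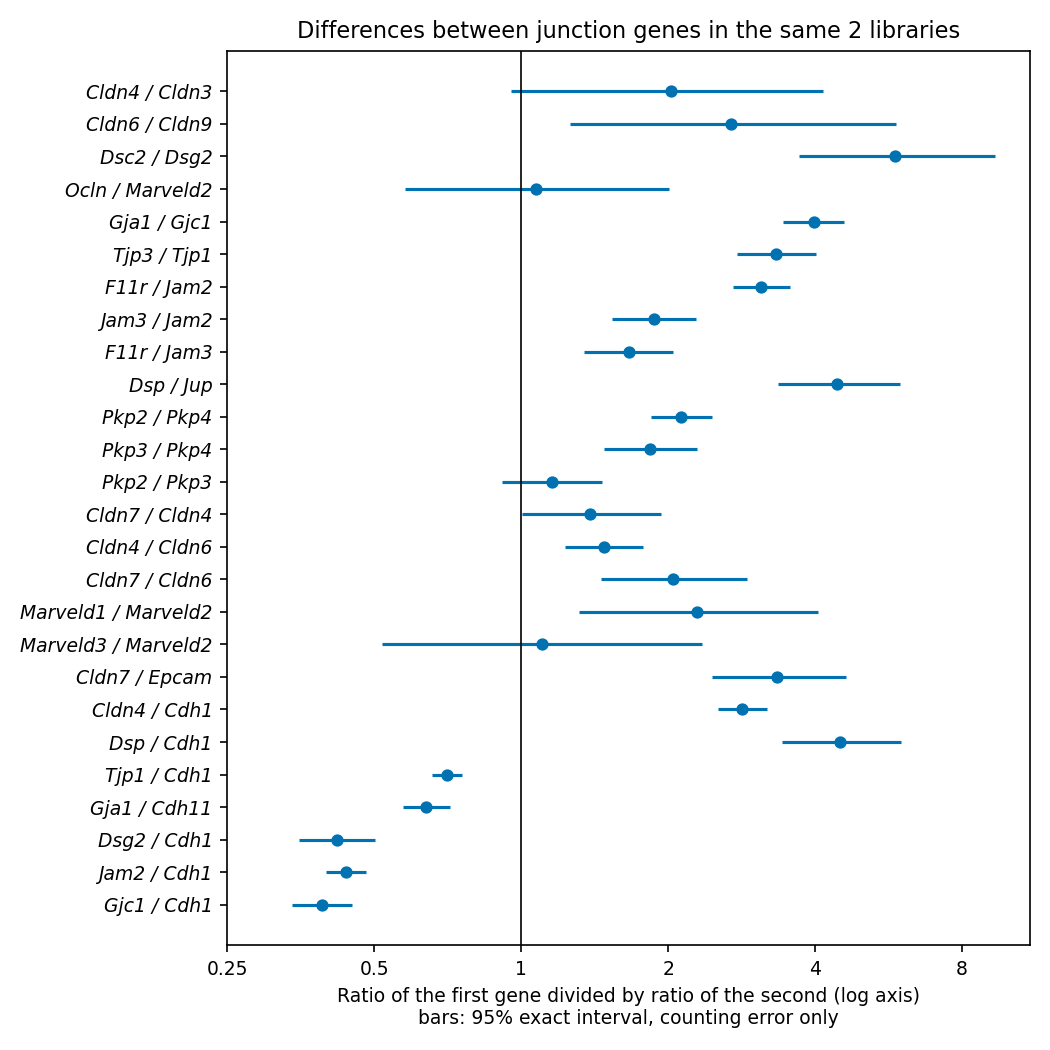
Ratio of the first gene (Pc4-OE over control) divided by that of the second, on a log axis, for 26 pairs of junction and cadherin genes, with 95% exact intervals of the counts; 1 means that both genes differed alike, and scaling of the libraries cancels out. Dsc2 over Dsg2 lies farthest to the right at 5.82, and Gjc1 over Cdh1 farthest to the left at 0.391.

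Members under 20 counts numbered 34. Of these, 13 were at 0 in both libraries and 11 had at most 2 counts in either. The other 10 had 3 or more counts in a library, and among them were Pkp1 (0 and 7 counts), Gja3 (6 and 7), Cldn10 (3 and 2), Cldn1 (2 and 7), Dsc3 (2 and 8), Gja5 (7 and 2), Cldn19 (10 and 6), Cldn18 (5 and 5) and Gja6 (1 and 5). A count of 0 allows a level of up to 0.288 CPM in the control-labelled library and of up to 0.290 CPM in the other, 3 counts in each. Cldn1, a barrier claudin of skin, and Cldn18, of stomach and lung, were thus barely counted at this depth.

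**Figure D5:**
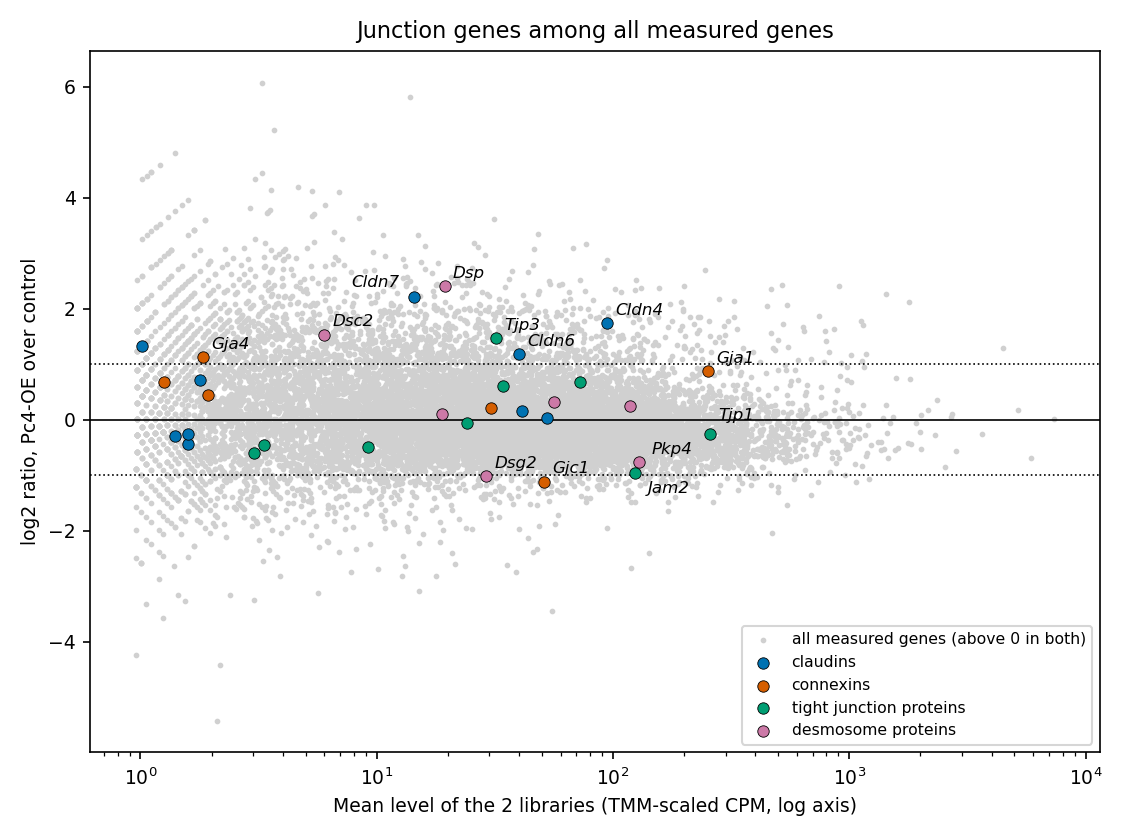
Log2 ratio against mean level (log axis) for all measured genes above 0 in both libraries (grey) with 32 junction genes coloured by family; dotted lines mark a 2-fold difference. The members' mean levels run from 1.01 CPM (Cldn15) to 258 CPM (Tjp1), and the 7 higher and 2 lower by the rule lie within the cloud of all genes. Cldn15 also lies above the upper line, but its interval holds a ratio of 1.

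Adherens junction genes, which hold the same cells together, were the nearest comparison. Of 19 measured, 4 were higher by the rule (21.1%, against 11.8% of all measured genes) and 0 lower (4.02% of all), with a median log2 ratio of 0.30. Cdh1, the epithelial cadherin, had 3715 and 4363 counts (log2 ratio 0.24), Epcam 1655 and 2280 (0.47), Ctnnb1 9278 and 9444 (0.03) and Ctnna1 6340 and 5326 (-0.24). The 4 higher genes were Cdh11, a mesenchymal cadherin (585 and 1671 counts, log2 ratio 1.52), Pvrl4 (71 and 171, 1.28), the neural and mesenchymal cadherin Cdh2 (106 and 230, 1.13) and Ctnna2 (5 and 35, 2.82). Set against Cdh1, which cancels the scaling, Cldn4 was 2.83-fold higher (2.53 to 3.18) and Dsp 4.50-fold higher (3.42 to 5.99) in the Pc4-OE-labelled library, and Cldn7 was 3.34-fold higher against Epcam (2.46 to 4.62). Tjp1 was 1.42-fold lower against Cdh1 (1.32 to 1.52), Jam2 2.28-fold, Dsg2 2.38-fold and Gjc1 2.56-fold lower. Gja1 differed less than the mesenchymal cadherin, its ratio being 0.639 times that of Cdh11 (0.572 to 0.714).

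Polarity and scaffold proteins of the apical junction gave 4 higher and 2 lower of 31 measured, with a median log2 ratio of 0.08. These shares, 12.9% and 6.45%, are near the 11.8% and 4.02% of all measured genes. Higher were Amotl2 (608 and 1680 counts, log2 ratio 1.48) and Amotl1 (613 and 1236, 1.02), angiomotin-like proteins of the Hippo pathway, Ppl, the desmosome and cornified envelope plakin (60 and 138, 1.21), and Crb3, the epithelial Crumbs protein (73 and 161, 1.15). Lower were Ildr2 (23 and 9 counts, -1.34) and Crb2 (20 and 8, -1.31). Cgn (cingulin), a partner of the Tjp scaffolds, had 451 and 550 counts (0.30), and Pard3, a core polarity protein, 863 and 766 (-0.16).

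Markers of other cells that the cultures could hold were counted in the same libraries, and summed levels are over the measured markers of each list. The counts by the rule stand beside 11.8% higher and 4.02% lower among all measured genes. All 24 fibroblast markers were measured and 19 met the rule as higher, with a sum of 7956 CPM in the control-labelled library against 20189 CPM in the other. Of 18 macrophage markers 16 were measured and 15 higher (231 and 663 CPM in sum), with Lyz1 at 0 and 2 counts. For trophectoderm and simple epithelium, 12 of 15 were measured, 5 higher and 1 lower (142 and 240 CPM). The higher ones were Krt7 (15 and 87 counts), Gata3 (3 and 24), Gata2 (16 and 59), Krt18 (48 and 120) and Tfap2c (519 and 1346). Tfap2a (33 and 16) was the lower one, while Cdx2 had 3 and 0 counts and Elf5 1 and 2. Of these 12 trophectoderm and simple epithelium markers, the interval lay above a ratio of 1 for 7 and below it for 4. Those below were Tfap2a, Eomes (161 and 85 counts), Tead4 (235 and 165) and Plet1 (104 and 71). For endothelium, 9 of 15 were measured, 2 higher and 2 lower (147 and 157 CPM). Vwf (160 and 446 counts) and Flt1 (99 and 279) were higher and Robo4 (182 and 28) and Esam (74 and 25) lower, while Emcn was at 0 in both libraries and Kdr at 9 and 7 counts. For keratinocytes, 4 of 12 were measured and 2 were higher (35.0 and 89.1 CPM). These were the cornified envelope genes Sprr1a, with 5 and 280 counts (56.3-fold, 23.9 to 175), and Ivl, with 17 and 87 (5.15-fold, 3.04 to 9.24). The keratins Krt6a, Krt14 and Krt5 had 0 and 0, 2 and 0, and 1 and 5 counts. The 12 stem cell markers were all measured and none met the rule (6534 and 5445 CPM). Still, the interval lay below a ratio of 1 for 5 of them and above it for 4. They ran from Pou5f1 (11373 and 5914 counts, 1.91-fold lower) to Fgf4 (2782 and 4034, 1.46-fold higher). The part of any of these cell types in the differences of Gja1, Dsp, Cldn4 or any other member was not tested. In such bulk libraries fewer cells of a type and less RNA per cell cannot be told apart.

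Counting could touch a few members. On the opposite strand, exons of another annotated gene overlap Tjp3 (40 bases), Dsp (499 bases of 9.59 kb) and Dsg2 (330 bases), as well as Jam3 (1159 bases) and Cldn3 (40 bases). The counting's strand setting is not given here, so reads in those bases are uncertain. Dsp, Dsg2 and Jam3, but not Tjp3 and Cldn3, had a stretch of 200 bases at 95% identity with a transcript of the gene that overlaps them. The search covered both strands, so it can find this same overlap again. No other measured member had such a stretch with another gene. Among the rows under 20 counts it did occur for Dsg1a, Dsg1b and Dsg1c, for Cldn22 and Cldn24, and for Gja5 with Zfp697 (856 bases).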

How the data were processed

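The authors deposited a table of raw integer counts for each gene and library, made with STAR 2.4.1c and featureCounts on mm10, per the submitters' processing notes. The libraries were made with a stranded TruSeq mRNA kit, per the labels' protocols. For annotation, strand setting and multi-mapping reads, the settings are not given here. Counts were scaled to CPM by the trimmed mean of M values (edgeR 4.0.16, R 4.3.3) fitted on all 24061 rows, with no pseudocount. Ratios, Clopper-Pearson intervals (95%) and conditional odds ratios of pairs used scipy 1.17.1, and the ratio and interval steps were tested on simulated Poisson counts. Reads are not independent molecules, so intervals cover counting error only.

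Positions came from RefSeq GRCm38.p6 by Entrez ID (69 of 69 matched), exon lengths from GENCODE M21 transcripts that carry a RefSeq mRNA, and promoters from RefSeq, taking the most upstream start that the table lists. By rule, every measured member is named, and rows under 20 counts where a library had at least 3. Of these, 4 members are not reported here by name; counts over all members include them. Outside the members, Sub1 and up to 6 genes per list past the 2-fold rule are named. Genes for comparison were chosen after their values were seen (Cdh1, Epcam, Ctnnb1, Ctnna1, Cgn, Pard3, Grhl3, Panx1, Cxadr, Twist1, Eomes, Tead4, Plet1, Pou5f1, Fgf4 and scarce markers). Members and lists were chosen with earlier results of these data known. Alternatives were library totals, DESeq2 1.42.0 size factors, upper-quartile scaling, a pseudocount of 0.5 CPM, other count minimums, an assumed coefficient of variation and leaving out chromosome 5.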

Additional observations from a re-analysis of the deposited data

How the results depend on the processing

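With 1 library per group no replicate could be left out. No paired analysis was possible because each group has 1 library. The count of members higher by the 2-fold rule, which also asks that the interval exclude 1, was 7, and 6 or 7 under every other scaling, pseudocount, count minimum and position setting run; it was 3 with the assumed coefficient of variation. The count lower by the rule was 2, but 1 with library totals, 1 with a pseudocount of 0.5 CPM and 0 with the assumed coefficient of variation, in each case by the loss of Dsg2 (log2 ratio -0.97 with library totals, -0.99 with the pseudocount), to which the last setting adds Gjc1. Gja4 lost the rule with the pseudocount (0.87). No member gained the rule and none reversed under the scaling, pseudocount and interval settings. The median log2 ratio lay between 0.15 (without the 4 measured members on chromosome 5; no member lies on chromosome 15) and 0.26 (library totals). Changes of scaling moved every log2 ratio by -0.01 to 0.04. Genes under 100 counts have wide intervals, and 10 of the 35 lie there.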

Other observations

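Regulators of the epithelial and the mesenchymal state, which control many junction genes, were both higher in part. Of 12 measured epithelial regulators, 4 met the rule as higher in the Pc4-OE-labelled library and 2 as lower, with a median log2 ratio of 0.27, against 11.8% and 4.02% of all measured genes. Higher were Esrp1, an epithelial splicing regulator (273 and 708 counts, log2 ratio 1.38), Tfap2c, an AP-2 factor of trophectoderm and germ cells (519 and 1346, 1.38), Elf3, an epithelial ETS factor (512 and 1286, 1.34), and Grhl2, a Grainyhead factor known to act on Cldn4 (205 and 481, 1.24). Lower were Klf5 (2908 and 1400, -1.05) and Tfap2a (33 and 16, -1.04). Grhl3 had 564 and 483 counts (-0.21).

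Of 10 mesenchymal regulators, with a median log2 ratio of 1.54, 0 were lower (4.02% of all measured genes) and 7 higher. These 7 are 70%, against 11.8% of all. They included Prrx1 (660 and 2095 counts, 1.68), Twist2 (152 and 590, 1.97), and the repressors of epithelial genes Zeb2 (127 and 366, 1.54), Snai2 (51 and 148, 1.55) and Snai1 (79 and 167, 1.09). Prrx1 and Twist1 also stand in the fibroblast marker list, of which 19 of 24 were higher in the same library.

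Of 9 measured pannexins and other junction membrane proteins, 3 were higher and 1 lower. These shares, 33.3% and 11.1%, stand beside 11.8% and 4.02% of all measured genes. Pmp22 (58 and 242 counts, log2 ratio 2.07), Emp1 (1660 and 4371, 1.41) and Emp3 (143 and 325, 1.19), members of the PMP22 and claudin superfamily, were higher. Esam, an adhesion molecule of endothelial tight junctions, was lower (74 and 25, -1.56). The gap junction relative Panx1 had 130 and 211 counts (0.71) and Cxadr, a receptor of the tight junction, 422 and 432 (0.04).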
